A study of Mus musculus with 3 samples.

Results

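The 43 genes described here encode enzymes and carriers that activate, oxidise, build, elongate and desaturate fatty acids. They were given as a list of gene symbols and were matched by symbol to the 55536 annotated genes of the deposited tables, and all 43 were found. They fall into 21 genes of mitochondrial oxidation, 4 of peroxisomal oxidation, 7 of activation and release and 11 of synthesis. RNA sequencing of polyadenylated transcripts was done on effector memory CD4 T cells, which have met antigen before and patrol tissues outside lymphoid organs. The cells came from 1 male B6.SJL-Ptprca Pepcb/BoyJ mouse, a CD45 congenic line, aged 5 months, and the labels name no treatment. The labels number 3 libraries as technical replicates 1, 2 and 3 of 1 biosample. They form 1 group, so no conditions could be compared, and every SD and p-value measures only the spread between these 3 libraries.

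As background, long-chain fatty acids are joined to coenzyme A by acyl-CoA synthetases, passed to carnitine by CPT1, carried across the inner mitochondrial membrane and returned to coenzyme A by CPT2. Repeated rounds of dehydrogenation, hydration, a further dehydrogenation and thiolytic cleavage then release acetyl-CoA, while electrons leave through the electron transfer flavoprotein. Synthesis runs from citrate through ATP citrate lyase, acetyl-CoA carboxylase and fatty acid synthase to palmitate, and malonyl-CoA made on that route inhibits CPT1. Memory T cells are known for using fatty acid oxidation, and proliferating effector T cells for making fatty acids.

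Depth and library agreement bear on all values below. Totals of the expected counts were 17474991, 15303615 and 16882311 for libraries 1, 2 and 3. The common coefficient of variation from edgeR was 0.0706 between libraries 2 and 3, but 0.402 between libraries 1 and 2 and 0.407 between libraries 1 and 3. Library 1 therefore stood apart. All 5 markers listed for these cells were detected: Cd3e, Cd3g and Trac of T cells, and Cd4 and Cd40lg of helper T cells. Each had a TPM (transcript abundance scaled for length and for the library total) of at least 1 in every library. Of 37 markers of other cell types 3 were detected: Cd8b1 at 8.18 ± 2.57 TPM, Cd68 at 4.72 ± 1.42 and Actn2 at 2.79 ± 0.77 (SD, n = 3). The markers of 2 tissues rich in these enzymes were near 0, with summed TPM from 0 to 0.37 per library for 5 adipocyte markers and 0 of 5 hepatocyte markers detected. The T cell part of the label matched Cd3e, Cd3g and Trac, and the helper part matched Cd4 and Cd40lg. Markers that set effector memory cells apart from naive or central memory cells were not checked.

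Transcripts of mitochondrial oxidation, with 21 of the 43 genes, were the largest share of the summed TPM. Each step of the pathway had at least 1 detected gene. Detection was called at a TPM of at least 1 in every library, which 21.1% of annotated genes and 44.9% of protein-coding genes reached. By this rule 19 of 21 mitochondrial genes, 4 of 4 peroxisomal genes, 6 of 7 activation genes and 8 of 11 synthesis genes were detected, 37 of 43 in all. The median level over all 21 mitochondrial genes, undetected ones included, was 37.2 TPM. It was 17.2 TPM over the 4 peroxisomal genes, 24.8 TPM over the 7 activation genes and 6.68 TPM over the 11 synthesis genes, against 24.1 TPM over all detected genes. In libraries 1, 2 and 3 the medians were 30.6, 31.9 and 32.1 TPM for mitochondrial, 14.2, 18.6 and 18.9 for peroxisomal, 21.7, 25.0 and 26.7 for activation and 6.49, 8.60 and 10.2 for synthesis genes, so all 4 were lowest in library 1. The low synthesis median rested partly on its 3 undetected genes, since it was 22.5 TPM over the members with a mean TPM of at least 1.

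The summed level of the mitochondrial genes was 1066 TPM in library 1, 825 in library 2 and 796 in library 3 (mean 896 ± 148, SD, n = 3). Synthesis genes summed to 407, 494 and 446 TPM in the same order (449 ± 43.4). Peroxisomal genes summed to 69.2, 103 and 105 TPM (92.7 ± 20.4) and activation genes to 273, 245 and 263 TPM (261 ± 14.3). The mitochondrial sum was highest in library 1, although the mitochondrial median was lowest there. The sums of the synthesis and peroxisomal members were lowest there. For the other genes of those 2 roles, described further below, the sums were highest in library 1. The 22 other synthesis genes summed to 842, 597 and 560 TPM in libraries 1, 2 and 3. The 17 other peroxisomal genes summed to 552, 472 and 463 TPM. The order of the member sums, mitochondrial, synthesis, activation and peroxisomal, was the same in each library. The roles hold 21, 11, 7 and 4 genes in that order, so a sum is not a level per gene. The mitochondrial sum includes Hadhb (mean 195 TPM), whose level is uncertain, as described below. Behind a level in bulk RNA, fewer cells of a type and less RNA per cell cannot be told apart. The libraries are labelled as technical replicates of 1 biosample, and what set library 1 apart was not tested.

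**Figure D1:**
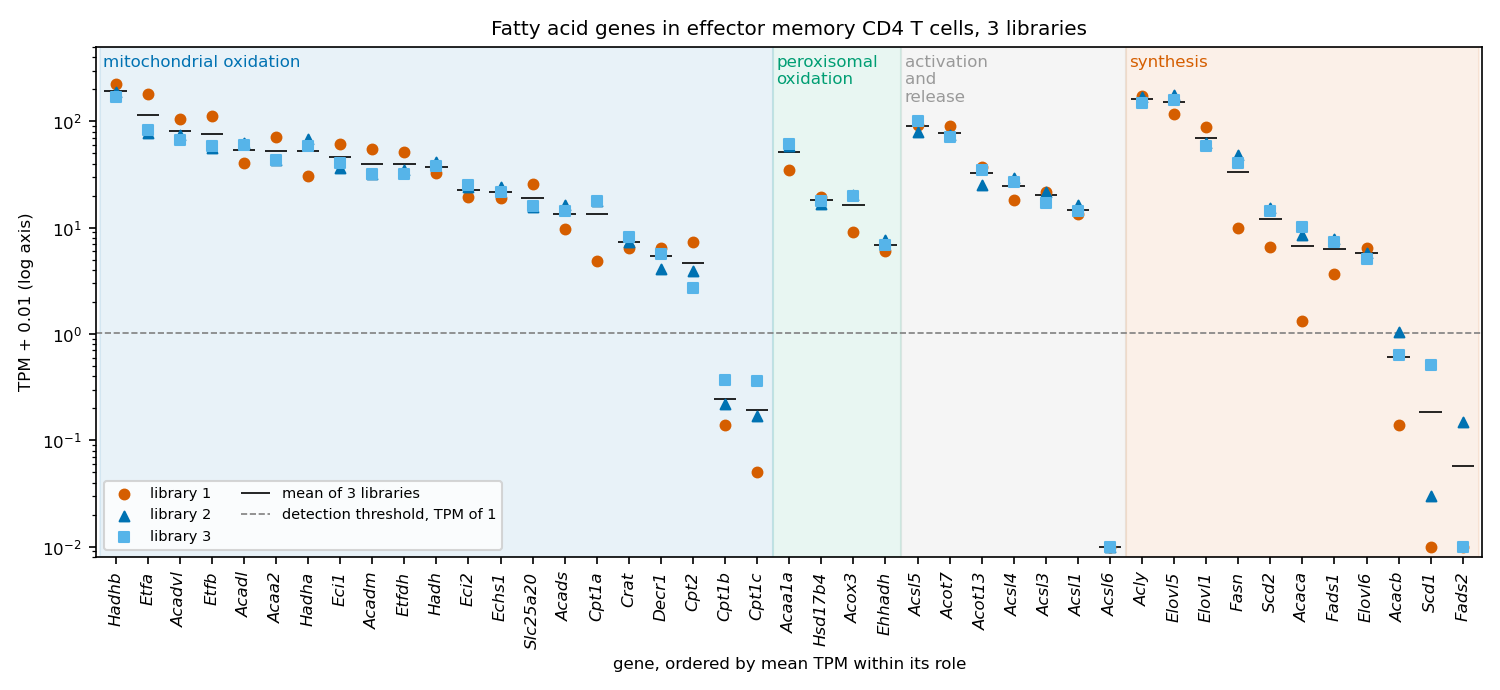
TPM + 0.01 of each of the 43 genes on a log axis in library 1 (circles), library 2 (triangles) and library 3 (squares), with the mean as a bar, ordered by mean within 4 roles. The dashed line is a TPM of 1, and 37 genes lie above it in every library. Genes at a TPM of 0 sit at 0.01.

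**Figure D2:**
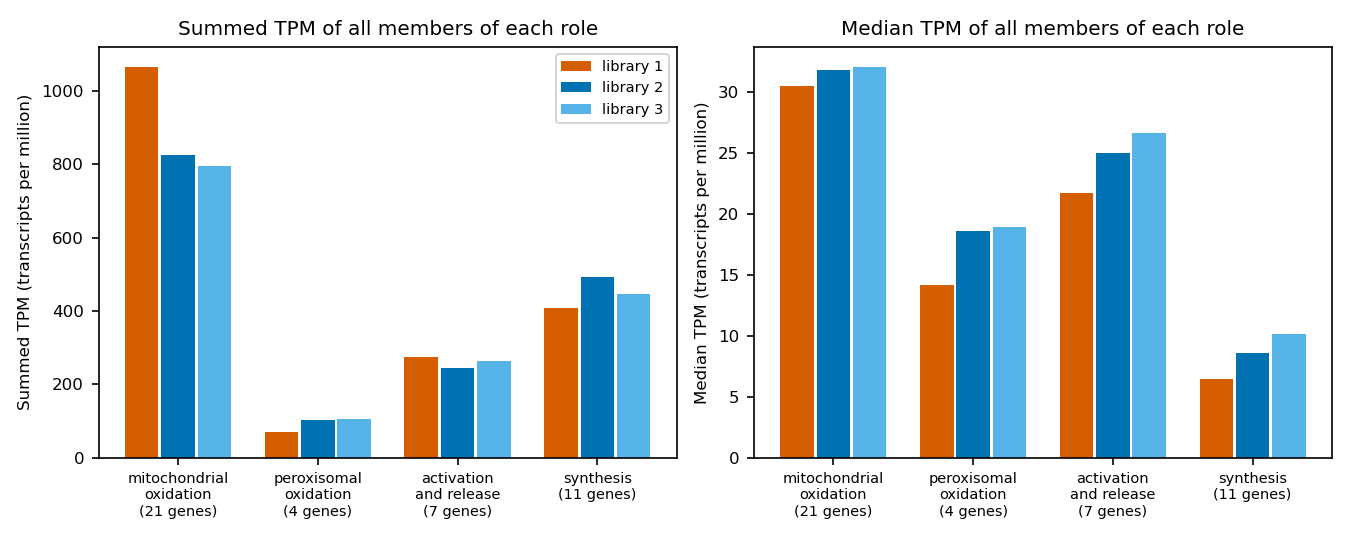
Summed TPM (left) and median TPM (right) over all members of each role in the 3 libraries, with bars starting at 0. The mitochondrial sum was 1066 TPM in library 1 and 796 in library 3, and the synthesis median was lowest in library 1.

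The carnitine shuttle had the lowest levels of the mitochondrial steps, with a median of 5.96 TPM over 6 genes and 4 of 6 detected. Cpt1a, the CPT1 form best known from liver and the rate-setting entry step, was at 4.83 TPM in library 1, 17.6 in library 2 and 17.9 in library 3. It was the 1 member of its family above the detection threshold. Library 1 was far below the other libraries, which lay close together. Cpt1b, the muscle form, was at 0.23 ± 0.12 TPM, from 10.5 expected counts over the libraries, and Cpt1c, the brain form, at 0.18 ± 0.16 TPM, from 10 counts (SD, n = 3). Cpt2, which remakes acyl-CoA in the matrix, was at 7.24, 3.93 and 2.67 TPM in libraries 1, 2 and 3. Library 1 was the highest for Cpt2, the reverse of Cpt1a. Slc25a20, the carnitine-acylcarnitine carrier of the inner membrane, was at 25.6, 15.6 and 16.0 TPM. By the mean over libraries it was the most abundant gene of the shuttle. In libraries 2 and 3, however, Cpt1a was above it, at 17.6 and 17.9 TPM. Crat, which moves acetyl groups between carnitine and coenzyme A, was at 6.48, 7.38 and 8.08 TPM (7.31 ± 0.80, SD, n = 3). The opposite-strand gene Dolpp1, at 19.9 TPM, overlaps Crat, and strand use in the authors' counting was not given in the sources used here, so the Crat level is uncertain. The same holds for the overlapping genes named below.

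All 9 enzymes of the oxidation spiral were detected, with a median of 52.5 TPM. The most abundant by TPM was Hadhb, the thiolase subunit of the trifunctional protein, at 226, 187 and 171 TPM (195 ± 28.1, SD, n = 3), above 92.2% of detected genes. This level differed between the deposited tables. The second set of gene counts, made on the older GENCODE M4 annotation, held 4.80% as many counts for Hadhb as the M21 table, against a median of 63.4% over the members. By M4 counts scaled for length and library total, Hadhb ranked 25 among the 43 genes instead of 1, so its level is uncertain. The acyl-CoA dehydrogenases, which take the first pair of electrons, differed by the chain length they act on. Acadvl, for very long chains, was at 105, 73.7 and 67.1 TPM in libraries 1, 2 and 3. Acadl, for long chains, was at 40.4, 62.1 and 59.4 TPM. Acadm, for medium chains, was at 54.95, 31.9 and 32.1 TPM. Acads, for short chains, was at 9.76, 16.3 and 14.3 TPM, the lowest of this enzyme group in every library. Library 1 was the highest for Acadvl and Acadm and the lowest for Acadl and Acads. Acaa2, the medium-chain thiolase, was at 71.6, 43.1 and 43.0 TPM. Hadh, the short-chain hydroxyacyl-CoA dehydrogenase, was at 32.6, 41.2 and 37.8 TPM (37.2 ± 4.34, SD, n = 3). Echs1, the short-chain enoyl-CoA hydratase, was at 19.0, 23.9 and 21.8 TPM (21.6 ± 2.43). Both were lowest in library 1. Dvl2 (18.1 TPM) overlaps Acadvl and Paox (1.86 TPM) overlaps Echs1 on the opposite strand.

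Hadha encodes the other subunit of the trifunctional protein, which carries the hydratase and long-chain dehydrogenase activities. It was at 30.6, 68.1 and 58.7 TPM, lowest in library 1, whereas Hadhb was highest there. The starts of the 2 genes point away from each other on chromosome 5. They lie 273 bases apart in RefSeq and closer in GENCODE M21, at 30155162 for Hadha and 30155248 for Hadhb. Both promoters therefore fall in the same stretch. RefSeq windows from 250 bases before to 50 bases after each start (GRCm38.p6) are printed because they share 228 bases, which can be read in opposite directions in the sequences. They lie at chr5:30154931-30155230 on the minus strand for Hadha and chr5:30155003-30155302 on the plus strand for Hadhb, and neither holds a CCAAT box, the letters that would be in capitals.
Hadha: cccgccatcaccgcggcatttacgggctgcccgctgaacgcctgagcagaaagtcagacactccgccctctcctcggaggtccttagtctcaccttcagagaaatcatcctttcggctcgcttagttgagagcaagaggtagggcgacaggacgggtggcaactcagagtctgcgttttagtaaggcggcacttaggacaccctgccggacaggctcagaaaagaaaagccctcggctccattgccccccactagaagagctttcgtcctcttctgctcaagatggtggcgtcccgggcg
Hadhb: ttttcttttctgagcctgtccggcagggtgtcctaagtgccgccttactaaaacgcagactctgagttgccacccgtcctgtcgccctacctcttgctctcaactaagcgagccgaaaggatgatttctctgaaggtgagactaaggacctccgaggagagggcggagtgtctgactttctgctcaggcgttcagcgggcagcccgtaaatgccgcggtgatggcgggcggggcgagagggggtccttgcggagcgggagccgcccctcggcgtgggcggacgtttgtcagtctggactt
Hadha also differed in its transcripts. Hadha-201, annotated as a processed transcript with no protein, took 48.3% ± 5.09 of the gene's TPM (SD, n = 3). Protein-coding transcripts took 4.59% in library 1, 4.87% in library 2 and 6.43% in library 3. It was the 1 detected member of 37 led by a transcript that is not protein-coding.

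The auxiliary enzymes handle double bonds that the spiral cannot. Eci1, a mitochondrial enoyl-CoA isomerase, was at 61.3, 36.1 and 40.7 TPM, highest in library 1. Eci2, an isomerase also found in peroxisomes, was at 19.3, 23.9 and 25.1 TPM, and Decr1, the mitochondrial dienoyl-CoA reductase, at 6.41, 4.10 and 5.69 TPM. The electron transfer flavoprotein genes were abundant, with a median of 75.4 TPM. Etfa, the alpha subunit, was at 183, 77.8 and 83.0 TPM in libraries 1, 2 and 3. Etfb, the beta subunit, was at 112, 55.8 and 58.9 TPM. Etfdh, the dehydrogenase that passes the electrons to ubiquinone, was at 51.2, 35.1 and 32.3 TPM. All 3 were highest in library 1, and libraries 2 and 3 lay close together. 4930579G24Rik (4.86 TPM) overlaps Etfdh on the opposite strand.

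Peroxisomes shorten very long and branched chains through an oxidase that passes electrons to oxygen. All 4 peroxisomal genes were detected. Acaa1a, the peroxisomal thiolase, was the most abundant, at 34.7, 58.7 and 60.7 TPM, and the opposite-strand gene Myd88 (42.4 TPM) overlaps it. Acox3, an acyl-CoA oxidase that acts on branched chains, was at 9.01, 20.5 and 19.9 TPM. Both were lowest in library 1 and alike in the others. Hsd17b4, the bifunctional enzyme of that route, was at 19.4, 16.7 and 18.0 TPM. Ehhadh, a second bifunctional enzyme, was at 6.03, 7.61 and 6.92 TPM, and neither of these passed the test of variation described below.

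Among the acyl-CoA synthetases, which commit a fatty acid to oxidation or to lipid assembly, Acsl5 was the most abundant in every library, at 92.0, 79.2 and 99.9 TPM. Acsl4, which prefers arachidonate, was at 18.4, 29.3 and 26.7 TPM, lowest in library 1. Acsl3 was at 21.7, 21.5 and 17.2 TPM and Acsl1 at 13.6, 16.2 and 14.5 TPM. Their ranges did not overlap, with the lowest Acsl3 value at 17.2 TPM and the highest Acsl1 value at 16.2 TPM. Acsl6, known from brain and the erythroid lineage, had 0 expected counts in each library. A floor of 3 counts corresponds to 0.112, 0.135 and 0.116 TPM, which limits its level for counting error only. The thioesterases, which free the acid from coenzyme A, were at 90.4, 73.9 and 70.6 TPM for Acot7 and 37.4, 25.0 and 34.5 TPM for Acot13. Zdhhc6 (31.7 TPM) overlaps Acsl5 on the opposite strand and Utp14b (5.21 TPM) overlaps Acsl3 on the same strand, so those levels are uncertain.

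On the route from citrate to palmitate, levels fell into a wide range. Acly, ATP citrate lyase, which makes cytosolic acetyl-CoA, was at 173, 169 and 150 TPM (164 ± 12.4, SD, n = 3), above 90.4% of detected genes. It was the first of the 43 genes by M4 counts scaled in the same way. Fasn, fatty acid synthase, was at 9.95, 48.6 and 40.5 TPM in libraries 1, 2 and 3. Its expected counts were 313, 3165 and 3348, so library 1 held a far smaller share than the others. Acaca, the cytosolic acetyl-CoA carboxylase, was at 1.30, 8.60 and 10.2 TPM. Acacb, the carboxylase at the mitochondrial surface, was at 0.13, 1.03 and 0.62 TPM from 6, 50 and 48 counts, and did not meet the detection rule. Acaca was above Acacb in every library, and both were lowest in library 1.

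Among elongases and desaturases, Elovl5, which lengthens polyunsaturated chains, was at 117, 176 and 159 TPM and lowest in library 1. By M4 counts scaled for length and library total it ranked 12 among the 43 genes instead of 3. Elovl1, which makes very long saturated and monounsaturated chains, was at 88.5, 62.0 and 58.7 TPM and highest in library 1. Cdc20 (6.32 TPM) overlaps Elovl1 on the opposite strand. Elovl6, which lengthens palmitate, was at 6.49, 5.71 and 5.03 TPM. Scd2 was the stearoyl-CoA desaturase of these cells, at 6.52, 15.4 and 14.2 TPM, while Scd1, the main form in liver, was at 0, 0.02 and 0.50 TPM from at most 3.31 expected counts. Scd1 and Scd2 are close paralogs, so reads shared between them are uncertain. The M4 table also held 0 counts for Scd1. It held only 18.8% as many Scd2 counts as the M21 table, so it does not settle where shared reads belong. Fads1, the desaturase that acts late in polyunsaturated fatty acid synthesis, was at 3.63, 7.81 and 7.27 TPM, and Fads2, which acts before it, was at 0, 0.14 and 0 TPM from 1 count in all. The M4 table held 23.1% as many counts as the M21 table for Elovl5, 23.8% for Elovl6, 18.8% for Scd2 and 25.3% for Acaca, all well under the member median, so these levels are uncertain too. In the carboxylase, CPT1 and stearoyl-CoA desaturase families, 1 member of each was therefore detected.

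The promoters of Acly and Fasn, the first and last enzymes of the route to palmitate, are shown as sequences only. They were chosen because library 1 was low for Fasn and not for Acly. All libraries are of 1 biosample, so the sequences do not compare libraries, and no link to that difference was tested. The windows lie at chr11:120824498-120824797 (Fasn, 69.3% GC) and chr11:100527951-100528250 (Acly, 68.7% GC), both on the minus strand of GRCm38.p6, from RefSeq. Capitals mark the CCAAT box, searched as CCAAT on either strand and so shown as CCAAT or ATTGG.
Fasn: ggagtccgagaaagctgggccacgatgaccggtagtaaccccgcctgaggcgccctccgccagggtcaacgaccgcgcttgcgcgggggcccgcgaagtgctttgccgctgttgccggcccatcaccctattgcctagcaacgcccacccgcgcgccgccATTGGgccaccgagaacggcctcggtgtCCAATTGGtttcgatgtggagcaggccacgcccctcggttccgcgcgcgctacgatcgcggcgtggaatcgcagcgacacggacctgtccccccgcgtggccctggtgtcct
Acly: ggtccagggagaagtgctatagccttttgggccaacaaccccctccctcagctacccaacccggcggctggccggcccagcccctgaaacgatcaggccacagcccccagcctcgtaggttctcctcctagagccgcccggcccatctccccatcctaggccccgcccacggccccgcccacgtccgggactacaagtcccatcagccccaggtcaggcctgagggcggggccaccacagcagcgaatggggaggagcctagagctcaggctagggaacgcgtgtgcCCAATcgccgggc
Fasn held 3 such matches, of which 2 overlap, and Acly held 1. The box was present in 37.4% of 32851 RefSeq promoter windows and in 19 of 38 windows of the members, which belong to 18 of the 34 members with a window. The letters TCACNCCAC, one form of the sterol regulatory element, were searched on both strands and occurred in 1.24% of windows and in the windows of 2 members, Acsl1 and Ehhadh. Of the 4 windows printed, 0 hold them.

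Counts differed between libraries by more than counting error for most members, as for most genes. Pearson's chi-square test on rounded expected counts against library totals was run on all genes with at least 30 counts, with Benjamini-Hochberg adjustment over all of them. At an adjusted p below 0.05, 75.8% of 13177 tested genes varied, and 32 of 38 tested members did. That was 17 of 19 mitochondrial, 2 of 4 peroxisomal, 5 of 6 activation and 8 of 9 synthesis genes. The 6 tested members that did not pass were Echs1, Eci2, Ehhadh, Hsd17b4, Acsl3 and Elovl6. Between libraries 2 and 3 alone, 16.7% of 12468 genes varied, and 4 of 38 members did: Eci1, Acsl1, Acot13 and Acly. When each chi-square value was divided by the median overdispersion of all genes (19.9), 21.6% of genes passed, and 10 members did: Cpt1a, Acadvl, Hadha, Hadhb, Etfa, Etfb, Acaca, Fasn, Scd2 and Elovl5. Fasn had the smallest p of the members on that scale (adjusted p = 1.64e-29).

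Library 1 was then set against libraries 2 and 3, which is a comparison of libraries and not of conditions. A gene was called higher or lower in library 1 where it passed the chi-square test, lay beyond both other libraries and differed by at least 1.5-fold in TPM from their geometric mean. Of all tested genes 17.4% were higher and 27.8% lower. Of the members 8 of 38 were higher and 12 of 38 lower. All 8 higher members were mitochondrial: Cpt2, Slc25a20, Acadm, Acaa2, Eci1, Etfa, Etfb and Etfdh. The lower members were Cpt1a, Acadl, Acads and Hadha of the mitochondrion, Acox3 and Acaa1a of the peroxisome, Acsl4, and Acaca, Acacb, Fasn, Scd2 and Fads1 of synthesis. No synthesis, peroxisomal or activation gene was called higher by this rule, although by CPM (expected counts scaled to the library total alone) Elovl1 was higher (log2 ratio 0.63). By CPM 18.4% of tested genes were higher and 28% lower, and 11 members were called in each direction.

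The median log2 ratio of TPM was 0.41 over 19 mitochondrial genes, -0.52 over 4 peroxisomal genes, 0.11 over 6 activation genes and -1.05 over 9 synthesis genes. It was -0.11 over all tested genes, whose 10th to 90th percentiles ran from -1.52 to 0.86. Over the other pathway genes described below it was 0.38 for 16 mitochondrial, 0.07 for 14 peroxisomal and 0.33 for 12 synthesis genes. The low peroxisomal and synthesis medians were thus those of the members and not of each role as a whole. The highest ratios among members with a mean TPM of at least 1 were Etfa (1.18), Cpt2 (1.16), Etfb (0.96), Acadm (0.78) and Acaa2 (0.73). The lowest were Acaca (-2.85), Fasn (-2.16), Cpt1a (-1.88), Scd2 (-1.18) and Acox3 (-1.16). Acaca, Acacb, Fasn and Cpt1a lay below the 10th percentile of all genes, and Etfa, Cpt2 and Etfb above the 90th. The adjusted p by chi-square, for counting error only, was 2.78e-77 for Cpt1a and 1.81e-58 for Acaca, and it was 0.000973 and 0.00697 after division by the overdispersion. For Fasn the ratio by CPM was -3.50, and by M4 counts, which were 199, 2517 and 2581, it was -3.66.

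**Figure D3:**
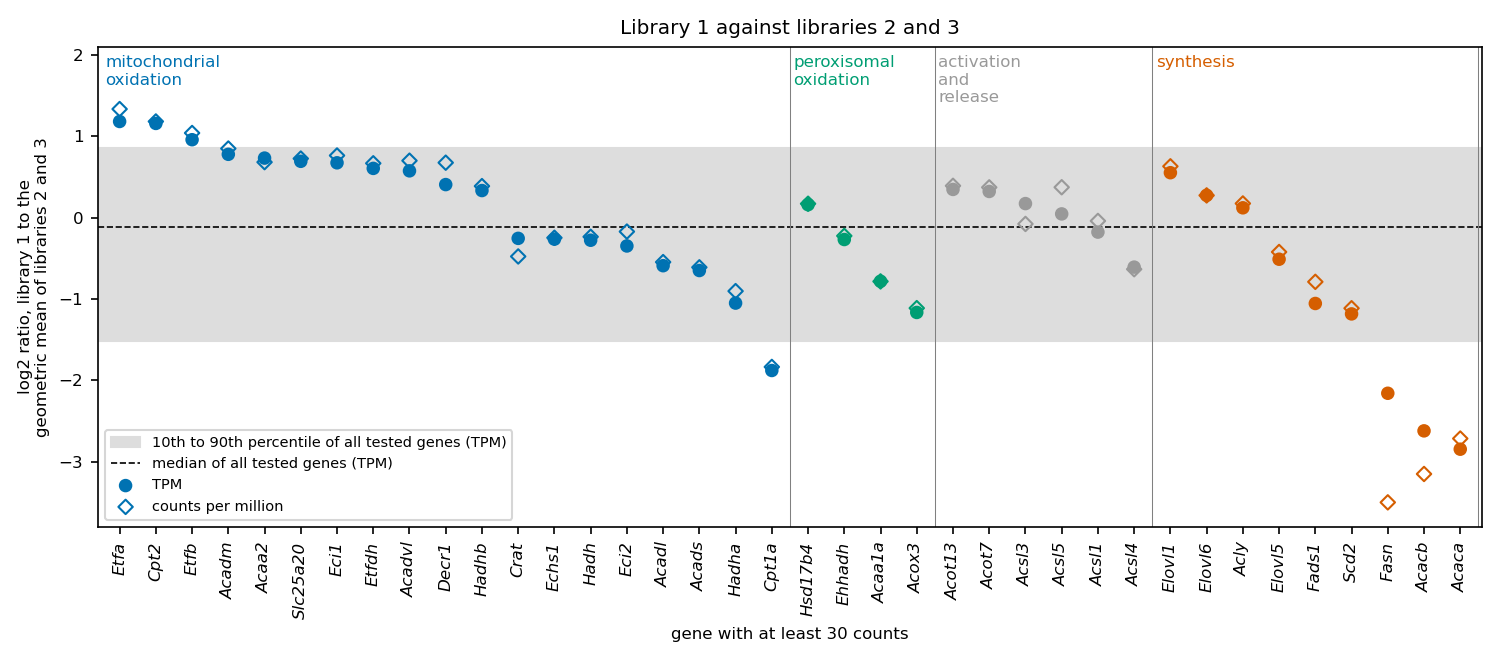
Log2 ratio of library 1 to the geometric mean of libraries 2 and 3 for the 38 members with at least 30 counts, from TPM (filled circles) and from CPM (open diamonds), by role. The dashed line is the median of all tested genes (-0.11) and the grey band their 10th to 90th percentile (-1.52 to 0.86). Etfa reaches 1.18 and Acaca -2.85.

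Transcript length moved with these ratios, and its part in the result was not tested. Lengths were looked up after the ratios were seen. Of 2157 detected genes longer than 4000 bases, 47.9% were lower in library 1, with a median log2 ratio of -0.55, against 18.5% of 3005 genes of up to 1500 bases, with a median of 0.18. Higher calls were made for 5.61% of the long and 28.5% of the short genes. Of the 7 tested members above 4000 bases, 6 were lower: Cpt1a, Acsl4, Acaca, Acacb, Fasn and Scd2. Acly, also above 4000 bases, had a ratio of 0.12. Of the 8 members of up to 1500 bases, 4 were higher (Acaa2, Eci1, Etfa and Etfb) and 0 were lower. The median length was 1889 bases for mitochondrial, 2824 for peroxisomal and 4179 for synthesis genes. Across 11407 detected genes Spearman's rho of length with the ratio was -0.29, and across the 38 tested members it was -0.67, as a description over genes that share the same 3 libraries. For GC content rho was -0.10 and -0.13. Of the T cell and helper T cell markers, Trac was higher in library 1 and Cd3e, Cd4 and Cd40lg were lower. Their part in the result was not tested either.

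**Figure D4:**
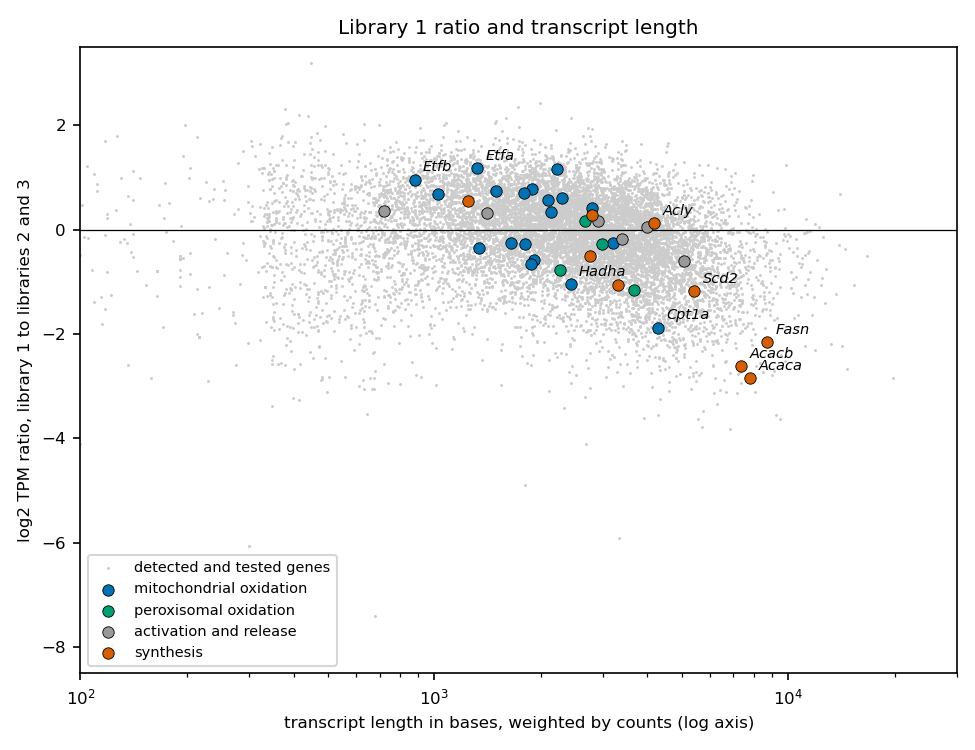
Log2 TPM ratio of library 1 to libraries 2 and 3 against transcript length (log axis) for detected genes (grey) and for the 38 tested members, coloured by role. The 37 genes outside the length axis, which starts at 100 bases, are not drawn. Fasn, Acaca and Acacb lie at the long, low end and Etfa and Etfb at the short, high end, while Acly is long with a ratio of 0.12.

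Most detected members were read from a coding transcript. A protein-coding transcript led in 36 of 37 detected members. The leading transcript of any class held over 50% of its gene's TPM in 30 of them and was the same in every library in 33. The median share of protein-coding transcripts was 91.4%. Acadl-201, Ehhadh-201 and Acot13-201 took 100% of their genes in every library, and Cpt1a-201 took 98.4% ± 0.01 (SD, n = 3). By TPM, Fasn had the widest range of coding share between libraries among the 37. Its coding transcript Fasn-205 took 0% in library 1, 62.5% in library 2 and 65.4% in library 3. Transcripts annotated as retained introns took 77.0%, 17.1% and 4.65% of Fasn TPM in that order. In library 1 that share came from short transcripts, Fasn-203 with 38.4 expected counts and Fasn-202 with 29.2. By expected counts, not scaled for length, coding transcripts held 78.4%, 97.9% and 99.6% of Fasn, so most counts were coding in each library. The length that the deposited table assigns to Fasn was 2977, 7385 and 8023 bases, so the same counts give a higher TPM in library 1. This is where the TPM and count ratios of Fasn parted. Acaa1a moved the other way, with retained introns at 9.16% in library 1, 23.2% in library 2 and 26.2% in library 3. Acsl1 had retained introns at a mean of 38.5%.

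**Figure D5:**
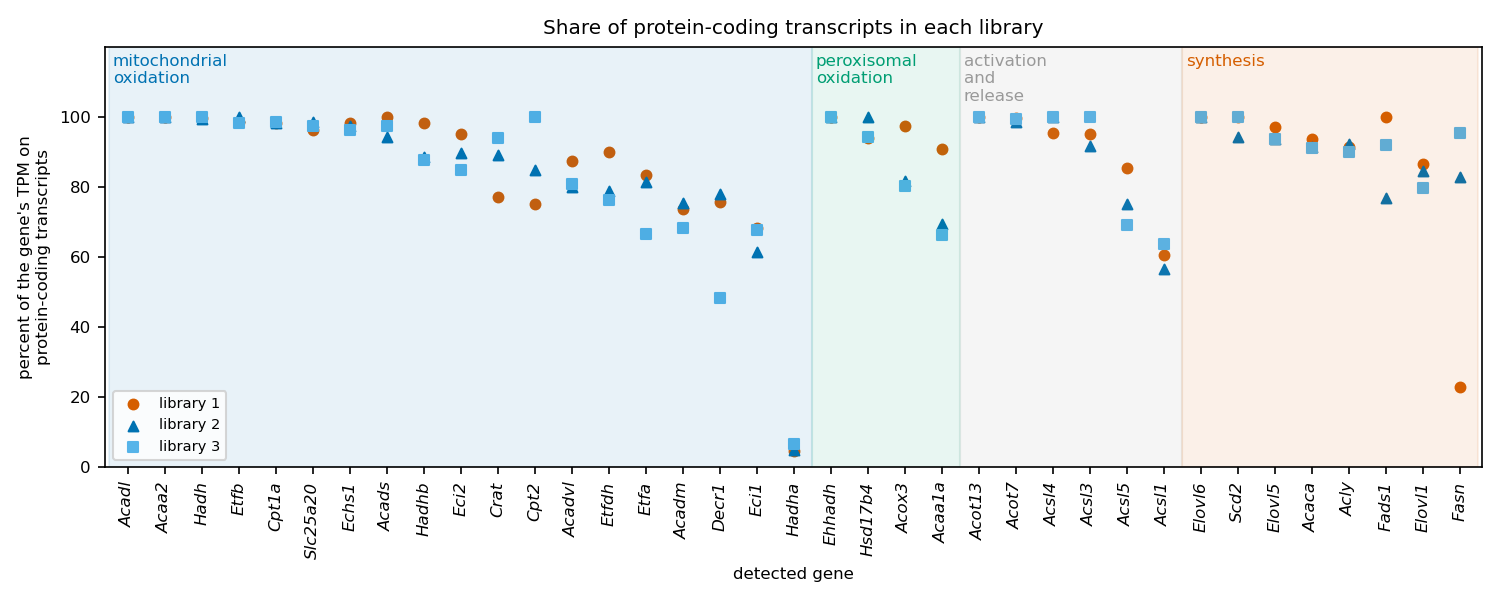
Percent of each detected gene's TPM on protein-coding transcripts in library 1 (circles), library 2 (triangles) and library 3 (squares), by role. Hadha lies between 4.59% and 6.43% in all 3 libraries, and Fasn is at 22.96% in library 1 against 83.0% and 95.3% in libraries 2 and 3.

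The other 103 genes listed for the pathway placed the members in context, and 71 of them were detected. Of 76 tested, 64 varied, 12 were higher in library 1 and 27 lower, where 75.8%, 17.4% and 27.8% of all tested genes were. Regulators stood at a median of 23.8 TPM with 15 of 20 detected, led by Ncor1, Nr1h2 and Insig1. Ncor1, a nuclear receptor corepressor, was at 779, 301 and 303 TPM, with a mean of 461 TPM that fell to 302 TPM without library 1. Its M21 expected counts were 13584, 5320 and 5859, but its M4 counts were 3432, 2756 and 2931. The excess in library 1 was smaller by M4, so the level and the higher call of Ncor1 are uncertain. Nr1h2, the liver X receptor beta, was at 240, 175 and 161 TPM. Insig1, which holds SREBP in the endoplasmic reticulum, was at 77.1, 160 and 146 TPM, with 19.99% as many M4 as M21 counts, so its level is uncertain. Srebf1, a transcription factor of fatty acid synthesis genes, was at 17.4, 53.4 and 42.3 TPM and Srebf2, its sterol-directed relative, at 56.2, 156 and 143 TPM. Both were lowest in library 1, and 12 of 16 tested regulators were called lower there by the rule above, against 27.8% of all tested genes. The regulators had a median length of 3351 bases and a median GC content of 56.4%. Of all detected genes between 3000 and 4000 bases 28.6% were lower, and of those between 55% and 60% GC 33.1% were, and the part of either in the result was not tested. Mlxipl, Ppara, Pparg, Nr1h3 and Ppargc1a did not meet the detection rule, with Ppara at 0, 0 and 0.75 TPM. Ppard was the PPAR detected, at 3.24, 7.67 and 7.21 TPM.

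The shares of 17.4% higher and 27.8% lower over all tested genes are the background for each list. Of 8 genes of AMP-activated kinase and malonyl-CoA control 7 were detected, led by Prkag1 (88.0 ± 27.0 TPM), Stk11 (62.9 ± 5.49) and Prkab1 (54.9 ± 6.54), with 1 higher and 1 lower in library 1. Of 16 other mitochondrial genes 15 were detected, led by Hsd17b10 (47.9 ± 18.9 TPM), Acadsb (47.6 ± 9.48) and Auh (46.9 ± 2.78), with 4 higher and 4 lower. Of 17 other peroxisomal genes 14 were detected, led by Scp2 (201 ± 39.6 TPM), Crot (64.4 ± 19.8) and Cat, catalase (48.7 ± 0.71), with 3 higher and 4 lower. Scp2 had 13.0% as many M4 as M21 counts, so its level is uncertain. Of 22 other synthesis genes 10 were detected, led by Tecr, the reductase of the elongation cycle (462, 247 and 240 TPM), Hacd3, its dehydratase (124 ± 9.83), and Acss2, which makes acetyl-CoA from acetate (58.7 ± 8.26), with 2 higher and 1 lower. Of 20 genes of uptake, binding and storage 10 were detected, led by Dgat1, which makes triglyceride (1105 ± 160 TPM), Pnpla2, the lipase that starts its breakdown (24.5, 111 and 105 TPM), and Lipa, the lysosomal acid lipase (42.2 ± 8.97), with 0 higher and 5 lower. Cd36, a fatty acid uptake receptor, and Lpl, lipoprotein lipase, were at 0.08 ± 0.09 and 0.10 ± 0.05 TPM (SD, n = 3).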

How the data were processed

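PolyA RNA-seq of 3 libraries of 1 biosample was analysed from the deposited tables on mm10 with GENCODE M21, per the file headers and labels. The authors deposited expected counts, model estimates in which a read may be divided between transcripts, with TPM and FPKM, each scaled within its library. Transcript tables deposited by the authors give each transcript's percent of its gene. A further deposited table on GENCODE M4 holds whole-number counts, with totals from 5047736 to 5278506. Aligner, quantifier and strand setting were not given in the sources used here.

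Rows without an Ensembl gene ID were left out of library totals. Genes with at least 30 rounded expected counts were tested with Pearson's chi-square test and Benjamini-Hochberg adjustment over all of them (threshold 0.05), and no quasi-likelihood contrast exists with 1 group. Common variation was estimated with edgeR 4.0.16 (TMM) in R 4.3.3, with DESeq2 1.42.0 size factors as an alternative. Python 3.11.15, numpy 2.4.6, pandas 2.3.3 and scipy 1.17.1 were used. Only the chi-square step was tested on simulated counts, which held counting error alone, unlike the counts of these libraries. There 0.039% of 12834 unchanged genes and 76% of 50 genes changed 1.5-fold were called. Promoter sequences are from RefSeq (GRCm38.p6). Mmut was matched to the annotation's Mut. The text names, per list, the 3 highest and all undetected members, the 5 highest and 5 lowest library 1 ratios and the 3 highest genes of each other pathway list. Other genes were named after their values were seen. The members and lists were chosen with earlier results of these data known. Intervals and floors cover counting error only.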

Additional observations from a re-analysis of the deposited data

How the results depend on the processing

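No paired analysis was possible because the libraries form 1 group. No direction reversed under any alternative run for a called gene. The mitochondrial median TPM was 22.3 as FPKM, 39.5 over members with a mean TPM of at least 1, 22.6 as the mean of log2(TPM + 1) turned back, 39.5 with Eci2 and Crat counted as peroxisomal, 28.6 by M4 counts scaled for length and library total, and 32.0 to 36.9 leaving out 1 library. The peroxisomal median was 10.3 as FPKM and 22.4 by M4. The activation median was 14.9 as FPKM, 28.5 over members of at least 1, 20.4 on the log2 scale, 28.8 by M4, and 22.5 to 28.0 leaving out 1 library. The synthesis median was 3.99 as FPKM, 22.5 over members of at least 1, 10.7 on the log2 scale, 4.02 by M4, and 5.76 to 9.38 leaving out 1 library. Varying members numbered 10 after division by the overdispersion, and 4 to 33 leaving out 1 library, with 4 where library 1 was left out. At 2-fold, 2 members were higher in library 1 and 8 lower (6.47% and 18.3% of all tested genes). By CPM 11 were higher and 11 lower (18.4% and 28%), and by TMM-scaled counts 11 and 9 (20.5% and 25.8%). By M4 counts scaled to the library total, chosen after seeing the data, 11 were higher and 9 lower (20.7% and 18.8% of genes), of which 8 and 8 were also called by TPM. Calls lost were Acadl by CPM, TMM, M4 and without library 2, Acads and Acsl4 by TMM, M4 and without library 2, Acaa1a by M4 and Etfdh without library 3. Calls gained were Acadvl, Decr1 and Elovl1 higher by CPM, TMM and M4, Acadvl and Elovl1 also without library 2, Decr1 also without library 3, and Crat lower by M4. The causes were not tested.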
